A study of Homo sapiens with 6 samples.

Results

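Different short interfering RNAs (siRNAs) against the same transcript, STEAP1, were set against each other in 2 Ewing tumor cell lines. The arrays were chosen by their labels: 2 arrays of cells given siRNA number 2 and 2 arrays of cells given siRNA number 3, which are 4 of the 6 arrays of the study. Each number was used once in SK-N-MC and once in A673, both established human lines, so each line gave 1 within-line difference. The other 2 arrays, 1 per line, came from cells given a non-silencing control siRNA. With all 6 arrays in the fit, the difference between the siRNAs is the mean of the within-line differences and holds no control value. The control arrays served to estimate the spread and to show where each siRNA lay relative to the control. Every sample had 5 nM siRNA for 48 h, was harvested at 80% confluency and gave 200 ng of RNA for labelling. Which control siRNA was used is not stated, and the A673 control is numbered 2. Nothing in the labels ties the arrays of a line to separate cultures. With 1 array per line and group, SEs and p-values rest in part on how far the differences between groups, control included, disagree between the lines. The limma fit also draws the variance of each gene toward a value shared by all genes. An SE is therefore not a measure of that gene alone, and genes whose lines agree closely share a similar lowest SE. Technical variation is part of the disagreement between the lines and cannot be told apart from it. No array of the same line and siRNA was repeated.

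Ewing tumors are bone and soft tissue cancers driven by a fusion of EWSR1 with an ETS factor, most often FLI1, and STEAP1 encodes a membrane protein of a metalloreductase family that these tumors express. An siRNA is a short RNA duplex of which one strand is loaded into an Argonaute protein and guides it to matching transcripts, where AGO2 can cut the RNA. The first bases of that strand, the seed, can also pair with other transcripts and lower them, as a microRNA does, and such off-target effects belong to the sequence and not to the intended target. Cells also carry sensors of double-stranded RNA, among them RIG-I, MDA5, PKR and the OAS enzymes, which start an interferon response. Comparison of siRNAs with the same target asks which differences follow the siRNA. The siRNA sequences were not used here, so no seed was searched for.

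Levels are given as log2 of the intensity the authors deposited, for 18417 genes, with a median of 3.26 over all genes and the 4 siRNA arrays. Of the Ewing tumor markers, 10 of 12 were measured and 9 had a mean of at least 4 over the siRNA arrays, and their median lay between 6.25 and 7.04 on every array. Of the markers of other cell types (blood, epithelial, endothelial, fibroblast, liver, muscle and pigment cells), 14 of 15 were measured, none had a mean of 4 or more, and their median lay between 1.46 and 1.66 on every array.

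STEAP1, the target, was measured first. The SK-N-MC levels were 7.15 (control), 4.17 (siRNA 2) and 4.73 (siRNA 3), an order used for every gene below, and the A673 levels were 6.23, 4.53 and 4.59. All 4 siRNA arrays lay below both control arrays. Against the control array of the same line, the log2 difference of siRNA 2 was -2.98 (SK-N-MC) and -1.70 (A673), and that of siRNA 3 was -2.42 and -1.64. The siRNAs themselves differed by -0.31 ± 0.26 (SE, 2 arrays per siRNA; limma, Benjamini-Hochberg adjusted p = 0.90), with a 95% interval from -0.92 to 0.30 that includes 0. Within the lines they differed by -0.56 (SK-N-MC) and -0.06 (A673). Differences between the siRNAs in other genes therefore cannot be assigned to siRNA sequence or to depth of STEAP1 silencing, which this design cannot tell apart.

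The STEAP relatives were measured beside it. STEAP1B, a close relative in sequence whose probe signal may be shared with STEAP1, stood at 3.79, 3.34 and 3.67 in SK-N-MC (control, siRNA 2, siRNA 3) and at 5.22, 4.57 and 5.06 in A673. STEAP2, a metalloreductase of the same gene cluster, stood at 6.89, 6.57 and 7.04 in SK-N-MC and at 6.84, 6.78 and 7.05 in A673. In both genes the siRNA 2 array was the lowest of its line, and siRNA 2 minus siRNA 3 was -0.41 ± 0.14 for STEAP1B and -0.37 ± 0.14 for STEAP2 (SE; adjusted p = 0.68 and 0.73). STEAP3 differed by 0.17, with 0.10 and 0.24 within the lines. STEAP4, dim on every array, differed by -0.14, and its sign was not shared by the lines (-0.37 in SK-N-MC, 0.10 in A673).

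Across all genes, no gene passed the test between the siRNAs (0 of 18417, 0.0%; limma with cell line as a block, lowest adjusted p = 0.57). At an unadjusted p under 0.05 there were 563 genes higher with siRNA 2 (3.06%) and 666 lower (3.62%), or 1229 in all, where 921 would be expected by chance. A fit to the 4 siRNA arrays alone also called 0 genes. Neither siRNA gave a gene past the threshold against the control arrays (0.0% each; lowest adjusted p = 0.16 for siRNA 2 and 0.51 for siRNA 3, with 1132 and 989 genes at an unadjusted p under 0.05). Without the A673 control array, 18 genes were called lower with siRNA 2, among them STEAP1, LIPA and the interferon genes RIGI, IFI35, IFIT2, IRF1, PSMB9, HERC5, OAS2 and XAF1. With siRNA 3 the 5 called were STEAP1, IRF1, HERC5, OAS2 and XAF1. The control was then the SK-N-MC array alone, which was assumed to vary like the other groups. Without either siRNA 3 array, 3 genes were called higher and 3 lower with siRNA 2, and without the SK-N-MC array of siRNA 3 another was called higher with siRNA 3. The siRNAs share these control arrays, so their differences from the control are given side by side only. All values below are therefore measurements that did not pass the test.

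A difference of at least 1.5-fold the same way in both lines was used to describe the data. It was met by 23 genes higher with siRNA 2 (0.125% of all genes) and by 33 lower (0.179%), and 25 genes passed 1.5-fold in opposite ways. Of the 56 genes, 28 were dim, with a mean log2 under 4 over the siRNA arrays. Among the 7394 genes at or above that level, 11 were higher and 17 lower (0.149% and 0.23% of them), and 6 moved in opposite ways. The within-line difference had an SD of 0.31 over all genes in SK-N-MC and 0.25 in A673. Of the 553 brighter genes past 1.5-fold in SK-N-MC, 363 (65.6%) had the same sign in A673, and of the 183 past 1.5-fold in A673, 118 (64.5%) had the same sign in SK-N-MC. Over all brighter genes that share was 54.4%. The last genes inside the 1.5-fold limit were POGLUT3 (smaller within-line difference 0.585) and MSL1 (0.588 below 0), and the first outside were DPYD (0.576) and PTBP3 (0.572 below 0).

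**Figure D1:**
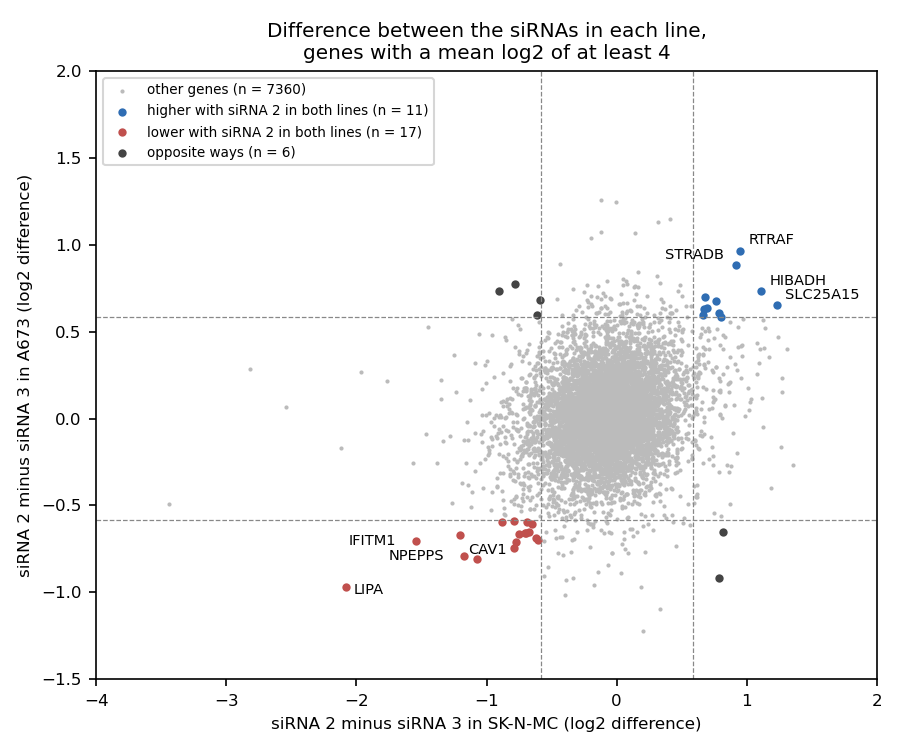
Log2 difference siRNA 2 minus siRNA 3 in SK-N-MC (x axis) against A673 (y axis), 1 point per gene, for the 7394 genes whose mean log2 was 4 or more; dashed lines mark 1.5-fold. The 11 genes at the upper right and the 17 at the lower left passed 1.5-fold the same way in both lines, and 6 passed it in opposite ways.

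Genes higher with siRNA 2 than with siRNA 3 in both lines were led by RTRAF, a factor that binds RNA and is part of the tRNA ligase complex. It stood at 7.09 (control), 6.90 (siRNA 2) and 5.95 (siRNA 3) in SK-N-MC and at 6.80, 7.15 and 6.18 in A673. The siRNA 3 array was the lowest of each line, and both siRNA 3 arrays lay below the other 4 arrays. The difference was 0.96 ± 0.17 (SE; 95% interval 0.56 to 1.35; adjusted p = 0.57), or 0.95 in SK-N-MC and 0.97 in A673. STRADB, a pseudokinase partner of the tumor suppressor kinase LKB1, stood at 5.65, 5.95 and 5.03 in SK-N-MC and at 5.40, 5.81 and 4.92 in A673, a difference of 0.90 ± 0.13. Its second probe set gave 1.12 and 0.84 in the same lines. HIBADH, an enzyme of valine breakdown, stood at 5.73, 5.77 and 4.66 in SK-N-MC and at 5.14, 5.33 and 4.59 in A673, a difference of 0.92 ± 0.16. In both of these genes the 2 siRNA 3 arrays were again the lowest of the 6.

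Next by the size of the smaller within-line difference came MIS18A, CDC7, SLC25A15 and TXNIP. MIS18A, needed to load the centromere histone CENP-A, stood at 6.00, 6.43 and 5.75 in SK-N-MC and at 6.68, 7.08 and 6.38 in A673. It was the one gene of the 11 brighter ones in which siRNA 2 lay farther from the control than siRNA 3 did in both lines. CDC7, the kinase that activates the replicative helicase at origins, stood at 5.50, 5.37 and 4.60 in SK-N-MC and at 4.88, 5.16 and 4.48 in A673. SLC25A15, the mitochondrial ornithine carrier of the urea cycle, stood at 4.63, 5.10 and 3.87 in SK-N-MC and at 5.11, 4.83 and 4.17 in A673. For CDC7 and SLC25A15 the siRNA 3 array was the lowest of each line, and the differences were 0.72 ± 0.16 and 0.94 ± 0.19. TXNIP, the thioredoxin-interacting protein that restrains glucose uptake, stood at 7.32, 6.98 and 6.28 in SK-N-MC and at 5.50, 5.81 and 5.17 in A673. The levels of TXNIP in the lines were far apart, so its groups overlapped over all arrays, but siRNA 3 was the lowest array within each line (difference 0.67 ± 0.19, adjusted p = 0.60). The other named genes were BTRC, an F-box protein that selects beta-catenin and other substrates for degradation (0.65), PITHD1 (0.70), STK35 (0.63), POGLUT3 (0.70) and DPYD, which starts pyrimidine breakdown (0.77). Their SE lay between 0.14 and 0.17.

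In all 11 brighter genes of this direction the siRNA 3 array lay below the control array in both lines, and in 10 of them siRNA 3 lay farther from the control than siRNA 2. Of all 7394 brighter genes, 27.6% had siRNA 3 below the control in both lines. The choice of genes higher with siRNA 2 favours a low siRNA 3 value, so these counts describe the genes and are no test.

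**Figure D2:**
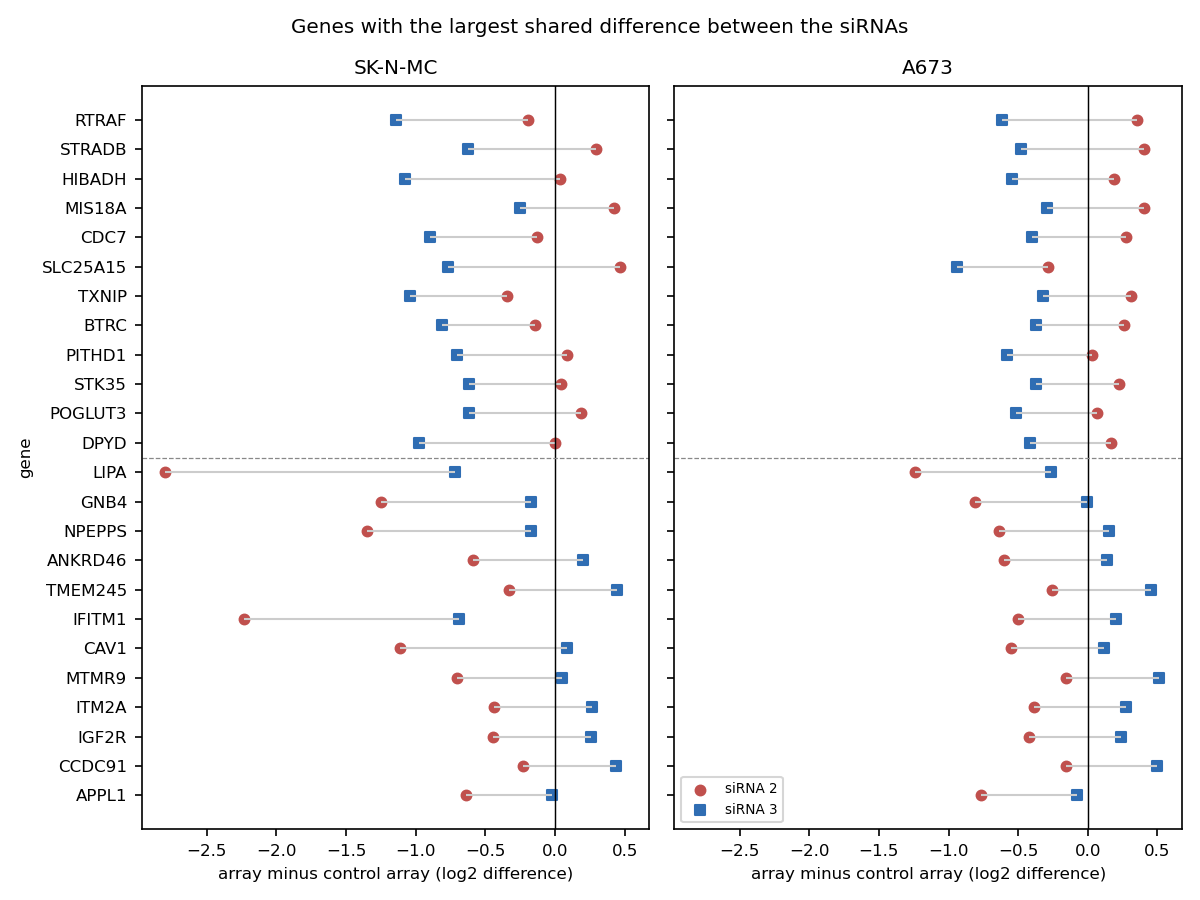
Log2 difference from the control array of the same line for siRNA 2 (circles) and siRNA 3 (squares), in SK-N-MC (left) and A673 (right), for the 12 named genes higher (above the dashed line) and the 12 lower with siRNA 2 in both lines. LIPA shows the widest gap, from -2.80 to -0.72 in SK-N-MC and from -1.24 to -0.27 in A673.

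Genes lower with siRNA 2 were led by LIPA, the lysosomal acid lipase that frees cholesterol and fatty acids from lipoprotein lipids. It stood at 5.09 (control), 2.29 (siRNA 2) and 4.37 (siRNA 3) in SK-N-MC and at 5.58, 4.34 and 5.32 in A673. Both siRNA 2 arrays lay below the other 4 arrays. The difference was -1.53 ± 0.32 (SE; 95% interval -2.26 to -0.80; adjusted p = 0.57), or -2.08 (SK-N-MC) and -0.97 (A673). GNB4, a beta subunit of heterotrimeric G proteins, stood at 6.78, 5.53 and 6.61 in SK-N-MC and at 6.92, 6.11 and 6.92 in A673, a difference of -0.94 ± 0.15. NPEPPS, the puromycin-sensitive aminopeptidase, stood at 6.43, 5.09 and 6.26 in SK-N-MC and at 5.77, 5.13 and 5.92 in A673, a difference of -0.98 ± 0.18. In GNB4 and NPEPPS the siRNA 3 arrays lay within 0.18 of their control arrays, and the siRNA 2 arrays were the lowest of the 6. NPEPPS has near-identical copies in the genome, so its probe signal may be shared.

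Other genes of this direction were CAV1, IGF2R and APPL1. CAV1, the coat protein of caveolae and a direct target of EWSR1-FLI1, stood at 7.92, 6.80 and 8.01 in SK-N-MC and at 10.22, 9.66 and 10.33 in A673. IGF2R, the receptor that carries mannose-6-phosphate-tagged enzymes to lysosomes, stood at 6.06, 5.62 and 6.32 in SK-N-MC and at 5.98, 5.56 and 6.22 in A673. APPL1, an adaptor of early endosomes, stood at 6.05, 5.41 and 6.03 in SK-N-MC and at 5.51, 4.74 and 5.43 in A673. In each of them siRNA 2 was the lowest array of both lines, and the differences were -0.94 ± 0.17, -0.68 ± 0.13 and -0.65 ± 0.13 (SE; adjusted p = 0.57 each). ITM2A, a membrane protein, stood at 8.48, 8.04 and 8.74 in SK-N-MC and at 8.46, 8.07 and 8.73 in A673, so the lines differed by at most 0.03 at each treatment. TMEM245, another membrane protein, stood at 6.89, 6.56 and 7.33 in SK-N-MC and at 6.85, 6.60 and 7.31 in A673, where the control array lay between the siRNAs in both lines. ANKRD46 (-0.77), MTMR9, a catalytically inactive myotubularin (-0.71), and CCDC91, a partner of GGA sorting proteins at the Golgi (-0.66), complete the named genes, with IFITM1 given below.

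In all 17 brighter genes of this direction the siRNA 2 array lay below the control in both lines, and in 12 of them siRNA 2 lay farther from the control than siRNA 3. Of all brighter genes, 28.7% had siRNA 2 below the control in both lines, and the same limit on reading these counts holds. CDK2, the kinase of the G1 to S transition, was among the other 5 of the 17, at 6.47, 6.08 and 6.77 in SK-N-MC, and its siRNA 3 array was the highest of both lines.

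Dim genes among the 56 included FRG1BP, a pseudogene whose signal may be shared with FRG1, with a difference of 0.94 ± 0.15. They also included MIR503, the gene of a microRNA that targets cell cycle transcripts, chosen for mention after its values were seen. Its array level was 2.20, 2.01 and 2.94 in SK-N-MC, with A673 at 1.98, 2.39 and 3.19, so siRNA 3 was the highest array of each line, at a dim level throughout. The probe set reads the gene and not the mature strand. The mature 5p strand, with its seed (bases 2 to 8) in capitals, is shown to identify the member (RefSeq, GRCh38.p14, minus strand, chrX:134546371-134546393).
hsa-miR-503-5p: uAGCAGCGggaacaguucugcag

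The machinery that carries small RNAs was examined next, since both siRNAs work through it. Of 17 measured members, 0 were higher and 3 lower with siRNA 2 at an unadjusted p under 0.05, against 3.06% and 3.62% of all genes. DICER1, the nuclease that makes mature microRNAs, stood at 7.22, 6.59 and 7.45 in SK-N-MC and at 6.27, 5.77 and 6.32 in A673. AGO2, the Argonaute that cuts RNA, stood at 6.00, 5.77 and 6.45 in SK-N-MC and at 6.22, 6.06 and 6.39 in A673. AGO1 stood at 6.05, 5.65 and 6.20 in SK-N-MC and at 5.70, 5.54 and 5.75 in A673. In all 3 genes siRNA 2 was the lowest and siRNA 3 the highest array of each line. The differences were -0.71 ± 0.14 for DICER1, -0.51 ± 0.15 for AGO2 and -0.38 ± 0.14 for AGO1 (SE; adjusted p = 0.57, 0.60 and 0.73). The list as a whole had a median difference of -0.04, beside -0.01 over all genes, and TNRC6B, a scaffold of the silencing complex, had the highest value in the list.

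**Figure D3:**
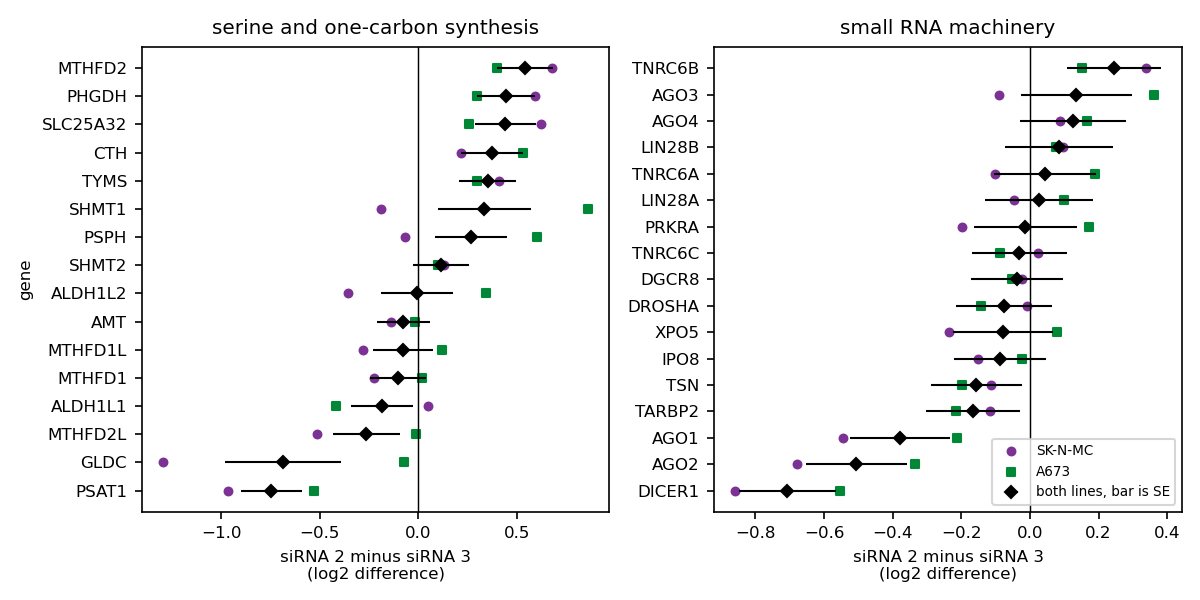
Log2 difference siRNA 2 minus siRNA 3 for the measured members of serine and one-carbon synthesis (16 genes, left) and of the small RNA machinery (17 genes, right); diamonds are the estimate over both lines with its SE, circles SK-N-MC and squares A673. DICER1 (-0.71), AGO2 (-0.51) and PSAT1 (-0.75) lie below 0 in both lines, and MTHFD2 (0.54) lies above 0 in both.

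Interferon-stimulated effectors, the antiviral proteins that interferon switches on, had the median farthest from 0 of the 28 lists examined, and the difference lay in SK-N-MC. The median of the 37 genes in SK-N-MC was 5.43 (control), 2.82 (siRNA 2) and 4.26 (siRNA 3). In A673 it was 2.16, 2.38 and 2.32, near the low end of the array. The median difference was -1.18 for SK-N-MC, -0.03 for A673 and -0.57 over both lines. In SK-N-MC 36 of 37 genes were lower with siRNA 2 than with siRNA 3 (97.3%, against 49.8% of all genes and 60.5% of brighter ones). At least 1.5-fold lower were 27 of the 37 (73.0%, against 3.43% of all genes and 5.3% of brighter ones). In 34 of 37 (91.9%, against 18.0% of all genes) the order in SK-N-MC was siRNA 2 below siRNA 3 below control. In A673 that order held for 7 genes (18.9%, against 17.0% of all genes). Over both lines 0 members were higher and 3 lower at an unadjusted p under 0.05 (8.11%, against 6.67% of all genes), and 0 passed the test. Only 12 of the 37 had a mean of at least 4, and the size of the list's difference came from SK-N-MC.

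Among the effectors, IFIT1, which binds foreign RNA that lacks a proper cap, stood at 8.39, 3.59 and 7.03 in SK-N-MC and at 2.70, 2.48 and 2.97 in A673. MX1, a GTPase that traps viral particles, stood at 7.75, 2.65 and 5.57 in SK-N-MC and at 1.85, 1.79 and 1.98 in A673. CXCL10, a chemokine that draws T cells, stood at 6.73, 1.53 and 4.75 in SK-N-MC and at 1.22, 1.14 and 1.18 in A673. In SK-N-MC each was highest in the control, intermediate with siRNA 3 and lowest with siRNA 2, and in A673 all arrays of these genes were under 3. These were the largest differences below 0 of all genes, at -1.97 ± 0.84 for IFIT1, -1.62 ± 0.93 for CXCL10 and -1.56 ± 0.91 for MX1 (SE; adjusted p = 0.74, 0.83 and 0.83). Within A673 alone CXCL10 differed by -0.03 and MX1 by -0.19. IFITM1, a membrane protein that blocks viral entry and is close in sequence to IFITM2 and IFITM3, differed in both lines. It stood at 9.14, 6.91 and 8.45 in SK-N-MC and at 5.35, 4.85 and 5.55 in A673, a difference of -1.12 ± 0.34 (adjusted p = 0.60). IFI35, an interferon-induced leucine zipper protein, stood at 5.63, 3.19 and 4.57 in SK-N-MC and at 3.86, 3.12 and 3.64 in A673, with siRNA 2 again the lowest array of each line.

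**Figure D4:**
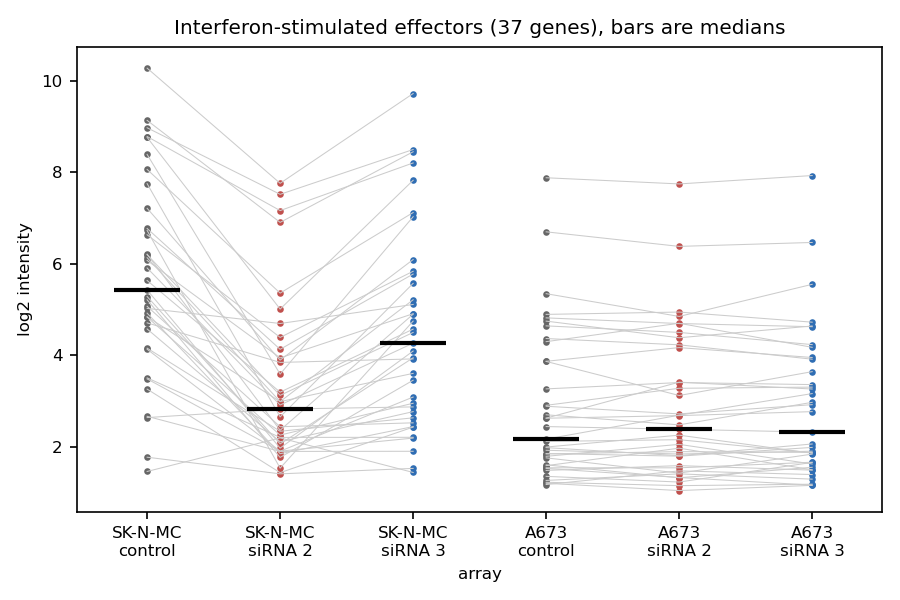
Log2 intensity of the 37 interferon-stimulated effectors on each of the 6 arrays, 1 point per gene, thin lines joining a gene within a line and bars at the median. The SK-N-MC medians are 5.43 (control), 2.82 (siRNA 2) and 4.26 (siRNA 3), and the A673 medians lie between 2.16 and 2.38.

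Interferon-activated factors are known to bind the interferon-stimulated response element (ISRE). The letters GAAANNGAA, its core, were searched on both strands, overlaps allowed, from 250 bases before to 50 after the start in RefSeq promoters (GRCh38.p14). They occurred in 972 of 14239 promoters (6.83%), in 23 of the 31 effectors with a promoter (74.2%) and in 4 of 12 double-stranded RNA sensors and adaptors (33.3%). Of the genes at least 1.5-fold the same way in both lines, 1 of 18 higher (5.56%) and 1 of 21 lower (4.76%) held it, shares near that of all promoters. The windows below show where the core lies in 6 effectors with a large difference between the siRNAs in SK-N-MC and a whole match before the start, in the orientation of the gene. They end before the start site, and capitals mark each whole match on either strand. In MX1 the matches lie after the start, and RIGI, IFI35 and OAS1 hold none of these letters in their window. IFIT1 is at chr10:89392495-89392554 (plus strand), IFI44L at chr1:78620349-78620408 (plus), IFIT5 at chr10:89414508-89414567 (plus), IFI6 at chr1:27672252-27672311 (minus), CXCL10 at chr4:76023685-76023744 (minus) and IFITM1 at chr11:313974-314033 (plus).
IFIT1: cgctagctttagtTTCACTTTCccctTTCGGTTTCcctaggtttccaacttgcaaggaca
IFI44L: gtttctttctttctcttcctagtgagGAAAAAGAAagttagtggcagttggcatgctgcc
IFIT5: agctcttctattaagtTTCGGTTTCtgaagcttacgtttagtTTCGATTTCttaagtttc
IFI6: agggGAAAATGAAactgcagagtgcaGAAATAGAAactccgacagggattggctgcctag
CXCL10: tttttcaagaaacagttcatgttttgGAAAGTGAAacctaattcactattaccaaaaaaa
IFITM1: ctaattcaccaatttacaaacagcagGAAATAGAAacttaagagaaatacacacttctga
The nearest match began 102 bases before the start in IFIT1, 73 in IFI44L, 18 in IFIT5, 93 in IFI6, 221 in CXCL10 and 40 in IFITM1. A match is a run of letters and was not tested as a binding site.

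Of 17 measured sensors and adaptors of double-stranded RNA, 0 were higher and 1 lower at an unadjusted p under 0.05 (5.88%, against 6.67% of all genes), and the list medians were -0.35 (SK-N-MC) and -0.09 (A673). In SK-N-MC 13 of 17 (76.5%, against 18.0% of all genes) had siRNA 2 below siRNA 3 below control, and in A673 6 of 17 (35.3%, against 17.0%). RIGI, which binds short blunt RNA duplexes, stood at 6.56, 3.22 and 4.75 in SK-N-MC and at 2.57, 2.08 and 2.70 in A673. OAS1, which makes the messenger that activates RNase L, stood at 8.39, 5.76 and 7.33 in SK-N-MC and at 4.79, 4.18 and 4.43 in A673. In both genes siRNA 2 was the lowest array of each line, with differences of -1.08 ± 0.53 for RIGI and -0.91 ± 0.39 for OAS1 (SE; adjusted p = 0.79 and 0.74).

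Antigen presentation by MHC class I was lower with siRNA 2 than with siRNA 3 in SK-N-MC for 12 of 13 measured members (92.3%, against 49.8% of all genes and 60.5% of brighter ones), with a median of -0.43. In A673 4 of 13 were lower (30.8%, against 51.8%), and the median was 0.09. The classical HLA genes were not among the genes with a probe set of their own. B2M, the light chain of class I molecules, stood at 9.13, 7.85 and 8.64 in SK-N-MC and at 9.35, 8.93 and 9.16 in A673. PSMB10, a subunit of the immunoproteasome, stood at 3.40, 2.84 and 3.44 in SK-N-MC and at 3.39, 3.23 and 3.42 in A673. In both genes siRNA 2 was the lowest array of each line, with differences of -0.51 ± 0.20 and -0.39 ± 0.16 (SE; adjusted p = 0.73 each). These were the 2 members lower at an unadjusted p under 0.05, and 0 were higher (15.4%, against 6.67% of all genes). Interferon signalling genes (receptors, kinases and regulatory factors) had 0 of 14 at that level in either direction. In SK-N-MC 13 of 14 (92.9%) were lower with siRNA 2, and the median was -0.11. The order siRNA 2 below siRNA 3 below control held for 64.3% (against 18.0% of all genes). In A673 7 of 14 were lower, 21.4% had that order (against 17.0% of all genes), and the median was 0.00.

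Whether the difference between the siRNAs differed between the lines was tested by its own term in the fit (limma, 1 residual degree of freedom). No gene passed (0.0%, lowest adjusted p = 0.85), and 1050 genes had an unadjusted p under 0.05. The residual holds the line difference of the mean silencing response, so genes with a large such difference have a wide SE. It was 1.03 for IFI44L and 1.41 for IFIT1, beside 0.28 for SYNGR4. The lack of a call therefore does not show that the difference was alike in both lines. The largest values of A673 minus SK-N-MC among brighter genes were those of IFI44L (3.11), IFIT1 (2.95), IFIT5 (2.61) and IFI6 (2.23), all interferon-stimulated. IFI44L and IFIT1 reached the level limit only through SK-N-MC and lay under 3 on every A673 array. IFI44L stood at 8.77, 5.01 and 7.83 in SK-N-MC and at 2.11, 2.15 and 1.86 in A673. IFI6, a mitochondrial antiapoptotic protein, stood at 10.28, 7.76 and 9.73 in SK-N-MC and at 4.64, 4.50 and 4.23 in A673. In the other direction stood SYNGR4 (-1.71), ACOT1, an acyl-CoA thioesterase (-1.62), EOLA2 (-1.59) and TCEAL3 (-1.47). SYNGR4, a synaptic vesicle protein relative, was 5.21 with siRNA 2 and 4.42 with siRNA 3 in SK-N-MC, against 2.75 and 3.67 for A673. It too reached the level limit only through SK-N-MC. A siRNA array under 4 also occurred in IFIT5 (2.36, siRNA 2 in SK-N-MC) and ACOT1 (3.07, siRNA 3 in SK-N-MC). The same held for EOLA2 (3.68, siRNA 3 in SK-N-MC) and TCEAL3 (3.70, siRNA 2 in A673). The adjusted p of these 8 genes lay between 0.86 and 0.88.

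Serine and one-carbon synthesis, which feeds nucleotide synthesis and methylation, had the highest share of members at an unadjusted p under 0.05 of the 28 lists. Of 16 measured genes, 5 were higher and 2 lower with siRNA 2, or 43.8% against 6.67% of all genes, and 0 passed the test. MTHFD2, a mitochondrial folate enzyme, stood at 7.68, 8.10 and 7.42 in SK-N-MC and at 7.98, 8.21 and 7.81 in A673. PHGDH, the first enzyme of serine synthesis, stood at 7.50, 7.88 and 7.28 in SK-N-MC and at 8.10, 8.50 and 8.21 in A673. Both were highest with siRNA 2 in each line, with differences of 0.54 ± 0.14 and 0.44 ± 0.15 (SE; adjusted p = 0.59 and 0.68). A second probe set of MTHFD2 gave 0.09 in SK-N-MC and 0.49 in A673. PSAT1, the next enzyme of serine synthesis after PHGDH, lay the other way, at 6.16, 5.47 and 6.43 in SK-N-MC and at 6.71, 6.36 and 6.89 in A673, a difference of -0.75 ± 0.15 (adjusted p = 0.57). The others of the 7 were SLC25A32 (0.44), CTH (0.37), TYMS (0.35) and GLDC (-0.69). The GLDC difference came mostly from SK-N-MC (-1.29, against -0.08 in A673). The median of the list was 0.05, with -0.10 in SK-N-MC and 0.19 in A673.

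ATF4 targets and the unfolded protein response had 1 of 33 members higher and 0 lower at an unadjusted p under 0.05 (3.03%, against 6.67% of all genes). That member was SESN2, a stress-induced inhibitor of mTORC1 that is also a p53 target, at 2.55, 3.25 and 2.56 in SK-N-MC and at 2.56, 3.27 and 2.31 in A673. Both siRNA 2 arrays lay above the other 4, and the difference was 0.82 ± 0.14 (SE; adjusted p = 0.57), though at a dim level. In A673 27 of 33 members were higher with siRNA 2 (81.8%, against 48.1% of all genes and 53.1% of brighter ones), with a median of 0.23. In SK-N-MC 12 of 33 were higher (36.4%, against 50% of all genes and 39.5% of brighter ones), with a median of -0.09. Of the 33 members 22 were brighter genes, so the SK-N-MC share lay near its background.

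Of 62 genes of G2/M and mitosis, 5 were higher with siRNA 2 and 0 lower at an unadjusted p under 0.05, or 8.06% against 6.67% of all genes, a share close to the background. In this list 28 were higher in both lines and 8 lower in both, and the median was 0.08 beside -0.01 over all genes. Over all genes 24.6% were higher in both lines and 26.3% lower. MKI67, the proliferation antigen Ki-67, stood at 7.06, 7.55 and 6.85 in SK-N-MC and at 7.55, 7.94 and 7.42 in A673. AURKB, the chromosomal passenger kinase, stood at 6.22, 6.24 and 5.77 in SK-N-MC and at 6.93, 7.26 and 6.71 in A673. KIF14, a kinesin of cytokinesis, stood at 5.32, 5.58 and 5.21 in SK-N-MC and at 6.14, 6.24 and 5.80 in A673. All 3 were highest with siRNA 2 and lowest with siRNA 3 in each line, with differences of 0.61 ± 0.14, 0.51 ± 0.14 and 0.40 ± 0.14 (SE; adjusted p = 0.57, 0.59 and 0.68). Of 48 genes of G1/S and DNA replication, 4 were higher and 0 lower at that level (8.33%, against 6.67% of all genes). The 4 were CDC7 (above), GINS2 of the replicative helicase (0.44), E2F2 (0.49) and TYMS (0.35), and the list median was 0.08. The E2F2 difference came mostly from SK-N-MC (0.90, against 0.08 in A673).

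Of 29 apoptosis regulators, 5 were higher with siRNA 2 and 0 lower at an unadjusted p under 0.05 (17.2%, against 6.67% of all genes), with a median of 0.10. CASP9, the initiator caspase of the mitochondrial pathway, stood at 3.16, 3.97 and 3.08 in SK-N-MC and at 2.88, 3.38 and 2.96 in A673, a difference of 0.65 ± 0.16. FAS, a death receptor, stood at 4.59, 4.36 and 4.23 in SK-N-MC and at 4.59, 5.39 and 4.33 in A673, so its difference of 0.60 ± 0.24 came mostly from A673. BCL2L1, which restrains the mitochondrial pathway, was also higher with siRNA 2 (0.39). Of 22 p53 targets, 4 were higher and 2 lower (27.3%, against the same 6.67%). The lower ones were MDM2, the ubiquitin ligase of p53, at 6.69, 5.98 and 6.59 in SK-N-MC and at 6.54, 6.11 and 6.45 in A673 (difference -0.48 ± 0.14), and ZMAT3, an RNA-binding protein (-0.45 ± 0.13). SESN2, DDB2, FAS and AEN were the higher ones.

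**Figure D5:**
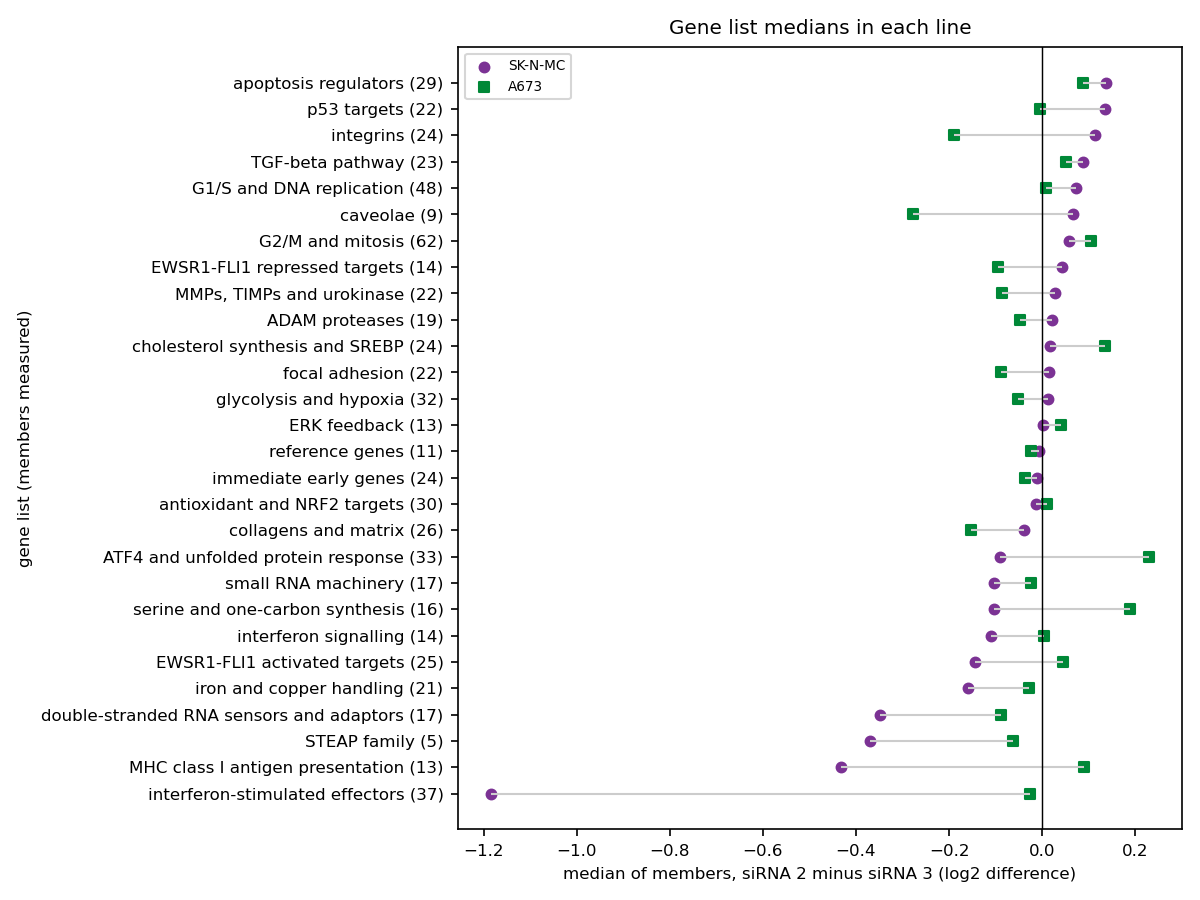
Median log2 difference siRNA 2 minus siRNA 3 over the measured members of 28 gene lists, in SK-N-MC (circles) and A673 (squares), ordered by the SK-N-MC value. Interferon-stimulated effectors lie farthest from 0 in SK-N-MC (-1.18) and near 0 in A673 (-0.03), and 14 of the 28 lists have medians of the same sign in both lines.

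Surface and matrix genes were counted at an unadjusted p under 0.05, a level met by 6.67% of all genes. The share was 8.33% for integrins, 7.69% for collagens and matrix and 10.5% for ADAM proteases. It was 11.1% for caveola genes and 4.55% for focal adhesion genes. Of 24 integrins, 0 were higher and 2 lower. ITGAV, the alpha V subunit that binds vitronectin and fibronectin, stood at 5.00, 4.39 and 5.27 in SK-N-MC and at 5.77, 5.37 and 5.96 in A673, lowest with siRNA 2 in each line (-0.74 ± 0.14). ITGA5, the fibronectin receptor subunit, stood at 6.36, 5.85 and 6.54 in SK-N-MC and at 5.93, 6.05 and 6.36 in A673 (-0.50 ± 0.17). FN1, fibronectin itself, stood at 7.42, 6.17 and 7.03 in SK-N-MC and at 9.85, 9.50 and 10.05 in A673 (-0.71 ± 0.21), and with COL1A2 (-0.47) made 2 lower and 0 higher of 26 collagens and matrix genes. In ITGAV and FN1, siRNA 2 was the lowest array of both lines. ADAM10, a protease that sheds surface proteins, stood at 6.65, 5.99 and 6.86 in SK-N-MC and at 7.17, 6.80 and 7.31 in A673 (-0.69 ± 0.15), with siRNA 2 lowest in both, and with ADAM8 (0.36) made 1 lower and 1 higher of 19 ADAM proteases. CAV1 was the one of 9 caveola genes past that level and VCL, the adhesion protein vinculin (-0.34), the one of 22 focal adhesion genes.

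Direct targets of EWSR1-FLI1, the fusion factor of these tumors, had 0 of 25 activated genes higher and 2 lower at an unadjusted p under 0.05. That was 8.0%, against 6.67% of all genes, and 0 of 14 repressed genes reached that level in either direction. The lower ones were CAV1 and LIPI, a phospholipase, which stood at 6.93, 6.35 and 6.83 in SK-N-MC and at 6.92, 6.82 and 7.33 in A673 (-0.49 ± 0.17). The median of the activated list was -0.01. TGFB3, a TGF-beta ligand (-0.77 ± 0.16), was the one of 23 genes of its pathway at that level (4.35%).

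Metabolic and signalling lists had 1 to 3 members each at an unadjusted p under 0.05. Beside 6.67% of all genes, the share was 6.25% for glycolysis and hypoxia, 10.0% for antioxidant genes and 14.3% for iron and copper handling. It was 8.33% for cholesterol, 15.4% for ERK feedback, 4.17% for immediate early and 4.55% for MMP, TIMP and urokinase genes. Of 32 genes of glycolysis and hypoxia, 1 was higher, the glucose transporter SLC2A1 (0.66 ± 0.17), and 1 lower, the oxygen-regulated factor HIF1A (-0.49 ± 0.17). SLC2A1 stood at 6.00, 6.27 and 5.30 in SK-N-MC and at 5.59, 5.74 and 5.38 in A673, highest with siRNA 2 and lowest with siRNA 3 in each line. Of 30 antioxidant and NRF2 target genes, 1 was higher (SOD3, 0.39) and 2 lower, NQO1, a quinone reductase (-0.57 ± 0.16), and PRDX4 (-0.37). Of 21 genes of iron and copper handling, ACO1, the iron-responsive aconitase, was higher (0.61 ± 0.18) and the transporters SLC31A2 and SLC11A2 lower (-0.39 each). Of 24 cholesterol genes, 2 were higher, the sterol carrier STARD4 (0.65 ± 0.17) and the epoxidase SQLE (0.35). Of 13 ERK feedback genes, 2 were higher, the ERK phosphatase DUSP5 (0.57 ± 0.14) and the ETS factor ETV5 (0.59 ± 0.17), and of 24 immediate early genes 1, FOS (0.45). MMP19 (-0.41), at a dim level, was the one of 22 genes of MMPs, TIMPs and urokinase.

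Reference genes gave the background of the comparison. GAPDH differed by -0.04 ± 0.13 and ACTB by 0.14 ± 0.14 (SE), and of 11 reference genes 0 had an unadjusted p under 0.05, with a median of 0.01. Over all genes the median difference was 0.00 in SK-N-MC and -0.01 in A673, and over brighter genes -0.07 and 0.02.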

How the data were processed

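The deposited values are intensities of Affymetrix Human Gene ST arrays. The submitters' processing notes name RMA and Affymetrix Expression Console 1.1, which the authors used to make them. Column medians lay between 6.01 and 6.48 and column maxima between 6795 and 7789. The maxima show that the scale is linear, and no source used here gives the step from log2 back to it. Log2 was taken with no further normalization. Array precision is limited by their number.

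Of 33297 probe sets, 21214 were in the platform annotation, 19460 with 1 symbol, 1754 with several and 12083 unnamed. A RefSeq table (GRCh38.p14) matched 19429 of the 19460, and the other 31 kept their symbols. The brightest probe set of each gene was used, which left 18417 genes, 769 with more than 1.

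The tool was limma 3.58.1 under R 4.3.3. Its lmFit and eBayes (two-sided, with a Benjamini-Hochberg adjusted p under 0.05 over all genes as the threshold) fitted the 6 arrays with cell line, siRNA 2 and siRNA 3 as terms, which left 2 residual degrees of freedom. A fit with a silencing term common to both lines and separate siRNA terms in each line left 1. Both fits were tested on simulated data. The labels give no replicate numbers shared across groups, so arrays were paired by cell line.

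Genes were named by a rule: the 12 in each direction, with a mean log2 of at least 4, whose smaller within-line difference was largest; the 3 largest differences in each direction; STEAP genes, GAPDH, ACTB and B2M; up to 3 members of each list with unadjusted p under 0.05; and the 4 largest line differences each way. MIR503, CDK2, list members beyond 3 and genes called only under another setting fall outside it and were picked after their values were known. The members and lists were chosen with earlier results of these data known. Gene lists were described by counts and medians without a test. The alternatives were 2 other scalings, 2 level limits, log2(intensity + 8), probe set means, a trended robust variance, no cell line term, only the siRNA arrays, and leaving out each array. The 13837 probe sets with no symbol or several were kept out.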

Additional observations from a re-analysis of the deposited data

How the results depend on the processing

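Between the siRNAs 0 genes were called in each direction under every alternative run, also without the cell line term that pairs the arrays (no replicate block: 0 genes), and with each array left out (0 to 0). The term for line dependence could not be fitted with an array left out. With genes of a mean log2 of at least 4 over the 6 arrays, siRNA 2 against control called 1 gene lower (STEAP1, adjusted p = 0.036 by limma), and with at least 6 it called 2 (GNB4 and PENK). Leaving out arrays gave 0 to 3 genes higher and 0 to 18 lower with siRNA 2, and 0 to 1 higher and 0 to 5 lower with siRNA 3. Fewer genes were at least 1.5-fold in both lines under limits on the level, by construction: 11 higher, 18 lower and 8 opposite at 4 or more, and 3, 6 and 2 at 6 or more. With log2(intensity + 8) they were also 3, 6 and 2. Of the values of 80 named genes with an array left out, 475 kept their direction. The exceptions were CXCL10 (-3.70 to 0.45), MX1 (-3.50 to 0.39), STEAP1 (-0.75 to 0.13), STEAP3 (-0.075 to 0.41) and STEAP4 (-0.36 to 0.084). With a siRNA array left out the fit is unbalanced and fills the gap from the control arrays, so these values are no estimate of the remaining within-line difference. That difference kept the sign in both lines for CXCL10, MX1, STEAP1 and STEAP3, and not for STEAP4. All 654 values of those genes under other settings kept direction and side of the threshold. Of the list medians, 236 stayed within the spread and 61 moved, among them interferon-stimulated effectors (-1.43 to 0.30 with a siRNA array left out, with the same limit). Other causes were not tested. The signal of dim genes limits what could be measured, since no detection calls were used.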

Other observations

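Probe sets left out of the gene comparison were tested on their own. Of 13837 with no symbol or several, 0 were called between the siRNAs or against the control by limma, and 688 had an unadjusted p under 0.05 between the siRNAs. At least 1.5-fold in both lines, 94 were higher and 161 lower with siRNA 2, and 251 lay in opposite ways. Among the 18417 genes, 23 were higher (0.125%), 33 lower (0.179%) and 25 opposite, and 6.67% had an unadjusted p under 0.05. More of these probe sets lay in opposite ways than in either shared direction, so the counts are not read as differences shared by the lines.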
